A study of Homo sapiens with 6 samples.

Results

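The genes described here are 32 genes of cholesterol and fatty acid synthesis that are known targets or parts of the sterol regulatory element-binding protein (SREBP) system, measured in SH-SY5Y cells. SH-SY5Y is an established line from a human neuroblastoma, a tumour of the sympathetic nervous system, and its cells resemble immature noradrenergic neurons. A gene was taken through the array probe sets annotated to it alone, and where there were several, the brightest by its 6-array mean was used. Of the 32 genes, 29 had such a probe set, and 27 were bright enough to be tested among 13407 genes in all. HMGCS1 and STARD4 were too dim, the probe sets of CYP51A1 are shared with another gene, and FDFT1 and ACSL3 are not analysed here. The 21 genes of the sterol branch gave 17 tested genes, and the 11 genes of the fatty acid branch gave 10.

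Groups were 3 samples of SH-SY5Y given 100 µM manganese for 24 h, a dose the labels put at the median lethal concentration divided by 5, and 3 untreated control samples. Both groups grew in a mixture of MEM and F12 containing serum from fetal calves at 10%, a source of lipoprotein cholesterol, and total RNA was read on 1 expression array per sample. Samples are labelled as biological replicates, with no word on separate cultures or days, so p-values measure only the spread between these samples.

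Cells make cholesterol from acetyl-CoA through mevalonate, farnesyl diphosphate, squalene and lanosterol, and make fatty acids from the same acetyl-CoA through malonyl-CoA. When sterols in the endoplasmic reticulum are scarce, SCAP carries the membrane-bound SREBPs to the Golgi, where proteases release the part that enters the nucleus and switches on these genes. When sterols are plentiful, INSIG proteins hold SCAP back. SREBF2 encodes the SREBP that acts mainly on sterol genes, and SREBF1 encodes those that act mainly on fatty acid genes.

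Before the genes themselves, 1 feature of the arrays bears on every value. Poly(A) control RNAs, read by 12 probe sets, averaged between 7.80 and 7.91 on the log2 scale on the manganese arrays and 7.79 on control 2, but 6.14 on control 1 and 5.81 on control 3. Control 1 also stood apart over the 13407 genes, with correlations to the other arrays between 0.967 and 0.981, while correlations among manganese arrays were 0.993 to 0.996 (Pearson's r across genes, a description only). Differences are therefore also given without control 1 and against control 2 alone. The share of these technical differences in the results was not tested. All 9 neuroblast markers with a probe set of their own, PHOX2A, HAND2, GATA3, ISL1, DBH, TH, CHGA, CHGB and STMN2, lay above the 40th percentile of every array, a level between 4.37 and 4.40. Markers of other cell types were mixed. Above that percentile on every array were 3 of 4 blood markers (CD68, AIF1 and HBB, but not PTPRC), 3 of 5 epithelial and liver markers (KRT18, KRT8 and APOA1, but not EPCAM or ALB) and 3 of 4 glial markers (GFAP, S100B and MBP, but not AQP4). Their part in the results was not tested. Mean levels of the 8 markers of mesenchymal-type cells, of which 5 lay above that percentile, were 5.68 to 5.76 on manganese arrays and 5.55 to 5.71 on control arrays. Neuroblast markers averaged 10.83 to 10.89 on manganese arrays, below the controls at 10.97 to 11.10. Blood markers (5.00 to 5.02 against 4.85 to 4.94) and epithelial and liver markers (4.73 to 4.76 against 4.47 to 4.72) lay above the controls. Glial markers overlapped (4.79 to 4.89 against 4.81 to 4.89). Whether these levels bear on the results was not tested.

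Most of the sterol and fatty acid genes were somewhat lower in manganese-exposed cells, and none passed the test. Of the 27 tested genes, 22 had log2 fold changes (manganese minus control) below 0, against 45.9% of all genes tested. The genes furthest below 0 were ACACA and IDI1, each at -0.82, SQLE at -0.70, MSMO1 at -0.63, and LPIN1 and ACAT2, each at -0.49. The gene furthest above 0 was PMVK, at 0.17. The median over the 27 was -0.19, beside 0.02 over all genes tested. With limma, 0 of the 27 reached an adjusted p of 0.05, and the smallest adjusted p was 0.138. That threshold was passed by 19 genes or 0.142% of all genes tested, 18 of them higher (0.134%) and 1 lower (0.00746%). With each array centred on its median these counts were 38 and 12, and with arrays centred on 10 housekeeping genes 34 and 7. At an unadjusted p under 0.05, 6 of the 27 were lower, against 6.85% of all genes tested, and 0 were higher, against 5.97%. The 6 were IDI1, SQLE, MSMO1, ACAT2, ACLY and ACACA. IDI1, which also had the smallest adjusted p, passed the brightness filter through its control arrays only. Such a filter favours lower values in manganese, so IDI1 adds little to these counts. In the same 6 genes all manganese arrays lay below all control arrays, a pattern found in 9.26% of genes tested, and in none of the 27 did they all lie above, against 10.5% of genes tested. In bulk RNA, less RNA per cell and fewer cells of a kind that expresses the gene cannot be told apart.

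**Figure D1:**
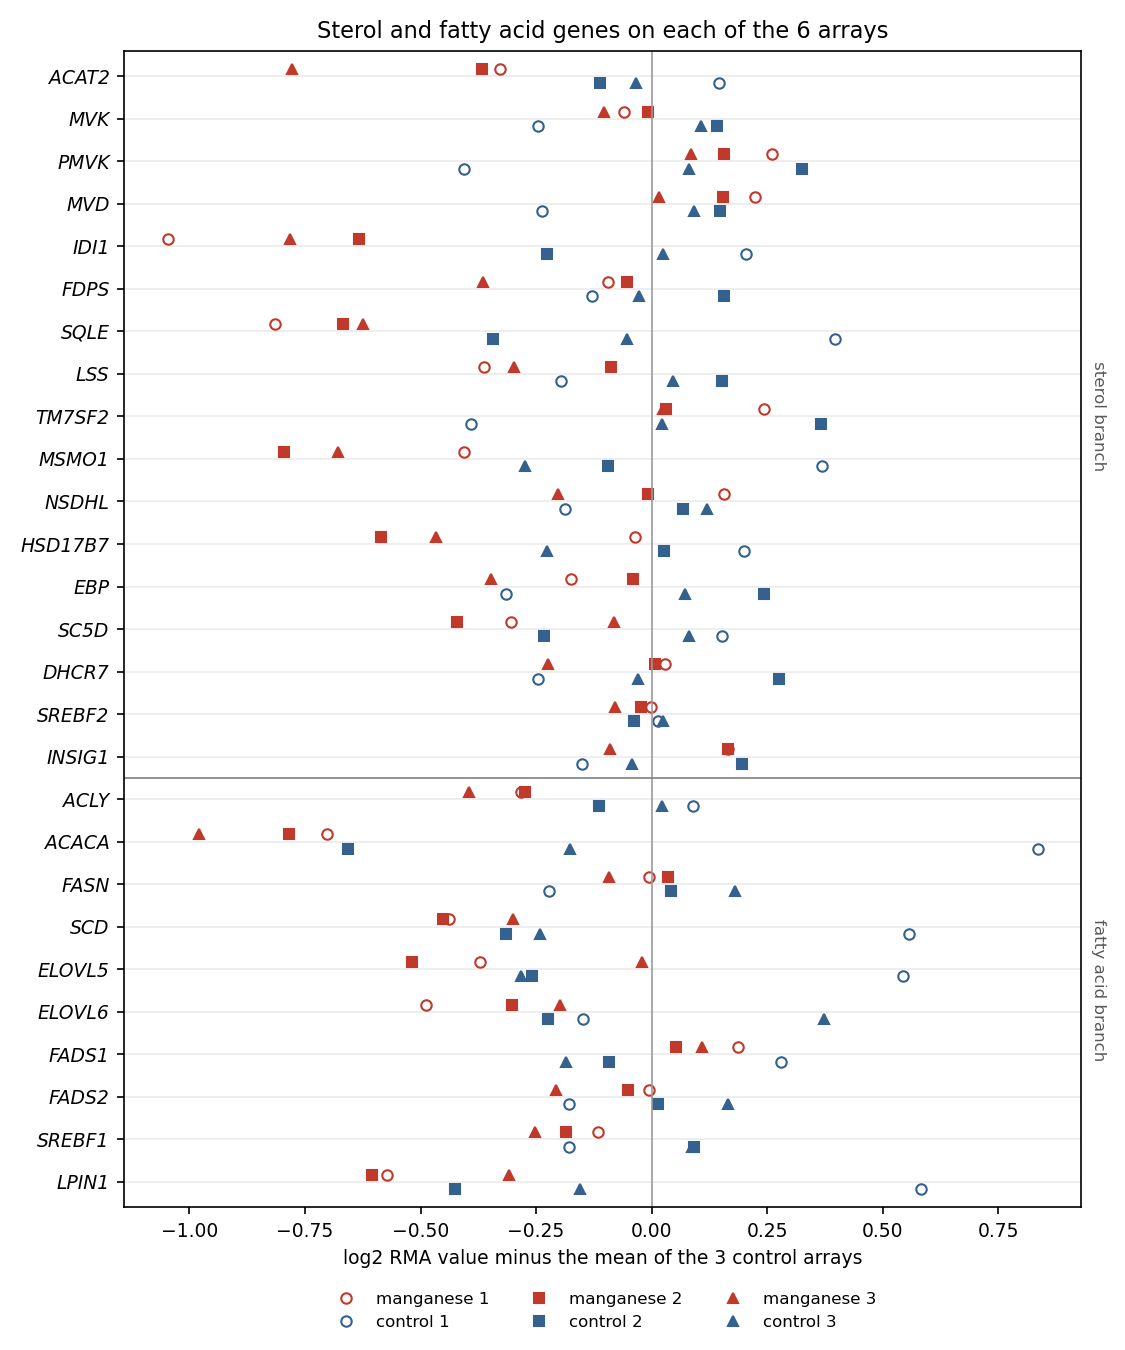
Log2 RMA value on each array minus the mean of the 3 control arrays (horizontal axis) for the 27 tested genes (vertical axis), with manganese arrays in red above control arrays in blue. For IDI1, SQLE, MSMO1, ACAT2, ACLY and ACACA every red point lies left of every blue point, and control 1 lies well to the right of the other controls for ACACA, SCD, ELOVL5 and LPIN1.

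Of the transcription factor genes, SREBF2 differed little, and SREBF1 was somewhat lower at its brightest probe set without passing the test. SREBF2 read 7.83, 7.81 and 7.76 on the manganese arrays, against 7.85, 7.80 and 7.86 on the control arrays. The groups overlapped, and the log2 fold change of -0.03 had a 95% interval of -0.26 to 0.19. All 3 of its probe sets lay close to 0, from -0.03 to -0.015. SREBF1 averaged 7.88 ± 0.07 in manganese and 8.06 ± 0.16 in control (SD, n = 3 each), a difference of -0.18 (limma adjusted p = 0.523). Its other passing probe sets gave differences in the opposite direction, up to 0.15. Without control 1 SREBF1 was at -0.27, and against control 2 alone at -0.28.

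SREBF2 is itself a sterol-regulated gene, and its promoter window is shown because it was the 1 window, among the 28 genes with an entry, that held an exact sterol regulatory element as searched, TCACNCCAC on either strand. Windows of 250 bases before to 50 bases after the annotated start were taken from RefSeq (GRCh38.p14). That motif occurred in 1.39% of the 27305 genes in the table and in 1.13% of the 35116 windows. ACAT2, FASN, SQLE and FDFT1 had no entry. Capitals mark TCACNCCAC and the letters CCAAT, which NF-Y binds beside SREBP, on either strand (ATTGG on the printed strand). The windows of MSMO1 and IDI1, 2 of the genes furthest below 0, were chosen after their values were seen and hold CCAAT but no TCACNCCAC. IDI1 has 3 listed starts, and the first window that held either motif was taken. That its printed window holds CCAAT was therefore fixed by the choice.
SREBF2, chr22:41832855-41833154, plus strand: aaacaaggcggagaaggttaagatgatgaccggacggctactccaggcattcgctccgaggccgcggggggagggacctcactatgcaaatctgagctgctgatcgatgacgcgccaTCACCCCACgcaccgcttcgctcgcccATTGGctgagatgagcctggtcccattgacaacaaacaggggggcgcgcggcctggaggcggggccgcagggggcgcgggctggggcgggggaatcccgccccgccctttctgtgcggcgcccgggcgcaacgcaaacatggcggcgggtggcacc
MSMO1, chr4:165327419-165327718, plus strand: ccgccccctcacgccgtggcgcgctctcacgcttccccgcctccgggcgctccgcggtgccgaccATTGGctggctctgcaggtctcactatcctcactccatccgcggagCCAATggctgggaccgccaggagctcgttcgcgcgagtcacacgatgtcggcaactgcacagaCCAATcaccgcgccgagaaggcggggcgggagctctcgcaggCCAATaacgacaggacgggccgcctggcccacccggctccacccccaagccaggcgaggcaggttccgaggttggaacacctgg
IDI1, chr10:1048837-1049136, minus strand, 1 of 3 listed starts: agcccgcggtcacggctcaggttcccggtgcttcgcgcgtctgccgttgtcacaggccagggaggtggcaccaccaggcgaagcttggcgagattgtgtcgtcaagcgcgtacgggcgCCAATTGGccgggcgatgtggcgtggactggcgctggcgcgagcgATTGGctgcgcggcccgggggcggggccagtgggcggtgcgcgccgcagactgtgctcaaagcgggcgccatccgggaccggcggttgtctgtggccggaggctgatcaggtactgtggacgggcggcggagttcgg
In SREBF2 the element began at base -133 from the start and the CCAAT match at -106, on the opposite strand. MSMO1 held 4 CCAAT matches, at -185, -139, -76 and -34. IDI1 held 3, and those at -132 and -129 overlap on opposite strands. CCAAT was found for 22 of the 28 genes or 78.6%, against 39.7% of all genes in the table. The genes without it were CYP51A1, ELOVL6, FADS1, LPIN1, PMVK and SREBF1, so it was present in windows of genes well below 0 and of genes close to 0. The E-box CACGTG was found for ELOVL5, INSIG1, LSS and SC5D, or 14.3% against 8.77%, and the GC box GGGCGG for 92.9% against 48.3%. A match describes the letters only and is not a measured binding site.

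INSIG1 holds SCAP in the endoplasmic reticulum and is among the most sterol-responsive SREBP targets, and its probe sets gave different pictures. The brightest read 7.80, 7.80 and 7.54 on manganese arrays, against 7.48, 7.83 and 7.59 on control arrays, a difference of 0.08 (95% interval -0.23 to 0.39). The second brightest read 7.44, 7.07 and 7.23 in manganese, against 8.62, 7.43 and 7.49 in control, a difference of -0.60. Control 1 lay far above the other 5 arrays there, and the difference was -0.19 against control 2 alone. The third probe set of INSIG1 gave -0.21. STARD4, a cytosolic sterol carrier, read 3.89, 4.06 and 4.20 in manganese, against 4.48, 4.27 and 4.53 in control. It lay below the 40th percentile on all 3 manganese arrays and on 1 control array, so it was outside the test. Fitted with no filter it was at -0.38 (limma adjusted p = 0.328), and its 5 probe sets ranged from -0.38 to 0.26.

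In the mevalonate part of the pathway, ACAT2 at the start and IDI1 at the isomerase step had lower values in manganese without passing the test. The kinases between them were closer to 0. ACAT2 joins acetyl-CoA units into acetoacetyl-CoA. It read 9.93, 9.89 and 9.48 on manganese arrays, against 10.40, 10.14 and 10.22 on control arrays. The groups did not overlap, and the log2 fold change was -0.49 ± 0.15 (SE, limma adjusted p = 0.287). Its 3 probe sets gave -0.49 to -0.36, and it was at -0.38 against control 2 alone. HMGCS1, which makes HMG-CoA, read 4.20, 4.12 and 4.28 in manganese, against 4.95, 4.12 and 4.62 in control. Manganese arrays and control 2 thus sat at the same level for HMGCS1, all of them below the 40th percentile. With no filter its difference was -0.36 (limma adjusted p = 0.503).

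IDI1 converts isopentenyl diphosphate to dimethylallyl diphosphate, the step that allows chain building. It read 3.94, 4.36 and 4.21 on manganese arrays, against 5.19, 4.76 and 5.01 on control arrays. All 3 manganese arrays lay below the 40th percentile and all 3 controls above it. IDI1 was thus tested only because its controls were bright, which favours a lower value in manganese. The log2 fold change was -0.82 ± 0.15 (SE, limma adjusted p = 0.138), or 1.77-fold lower in manganese, the smallest p among the 27 genes. It was -0.72 without control 1 and -0.59 against control 2 alone. The dimmer probe set of IDI1 did not pass the filter. MVK, the mevalonate kinase, was at -0.06 (95% interval -0.36 to 0.24), PMVK at 0.17 (-0.25 to 0.59), MVD at 0.13 (-0.18 to 0.44) and FDPS, which makes farnesyl diphosphate, at -0.17 (-0.47 to 0.13). For PMVK the array control 1 read 9.42, lower than the other controls at 10.15 and 9.90 and the manganese arrays at 9.91 to 10.08. Without control 1 PMVK was at -0.04 and MVK at -0.18, and against control 2 alone all 6 tested genes of this part were below 0.

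Of the enzymes that turn farnesyl diphosphate into lanosterol, SQLE was the lower. SQLE is squalene epoxidase, a rate-limiting step of the late pathway. It read 6.79, 6.94 and 6.98 on manganese arrays, against 8.0, 7.26 and 7.55 on control arrays. The manganese arrays lay close together while the controls were spread, with control 1 highest. The log2 fold change was -0.70 ± 0.18 (SE, limma adjusted p = 0.232), or -0.50 without control 1 and -0.36 against control 2 alone. All 4 probe sets of SQLE lay below 0, from -0.85 to -0.21. LSS, which closes the sterol rings to give lanosterol, was at -0.25 (limma adjusted p = 0.458). Its controls read 7.22, 7.57 and 7.46, with control 1 the lowest, so LSS was at -0.35 without control 1 and at -0.40 against control 2 alone.

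After lanosterol, MSMO1 stood out from the other enzymes. MSMO1 oxidizes the methyl groups at carbon 4 of the sterol. It read 6.57, 6.19 and 6.30 on manganese arrays, against 7.35, 6.89 and 6.71 on control arrays, with no overlap. The log2 fold change was -0.63 ± 0.18 (SE, limma adjusted p = 0.278), and it was -0.44 without control 1 and -0.53 against control 2 alone. The other 3 probe sets of MSMO1 did not pass the filter and ranged from -0.29 to 0.17. The enzymes that work on the same demethylation, NSDHL at -0.02 and HSD17B7 at -0.36, overlapped between groups, and HSD17B7 lay near the filter on all arrays, between 3.88 and 4.66. TM7SF2, a sterol reductase, was at 0.10 with all controls and at -0.27 against control 2 alone. EBP, the sterol isomerase, was at -0.19, and at -0.35 without control 1. SC5D, a desaturase, was at -0.27, and DHCR7, which makes the last double-bond reduction to cholesterol, at -0.06. Of the 7 tested genes after lanosterol, 6 were below 0 with all controls, and 7 were below 0 without control 1.

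In the fatty acid branch ACLY and ACACA, which supply the precursors, had lower values in manganese without passing the test, and the synthase FASN lay close to 0. ACLY makes cytosolic acetyl-CoA from citrate and so feeds both branches. It read 11.20, 11.21 and 11.09 on manganese arrays, against 11.57, 11.37 and 11.50 on control arrays. The groups did not overlap, and the log2 fold change was -0.32 ± 0.11 (SE, limma adjusted p = 0.321). Its second probe set gave -0.56, and -0.48 against control 2 alone, where the brightest gave -0.20. ACACA, the carboxylase that makes malonyl-CoA, read 7.35, 7.27 and 7.07 in manganese, against 8.88, 7.39 and 7.87 in control. The lowest control array of ACACA lay close to the highest manganese array. Its log2 fold change of -0.82 ± 0.33 (SE, limma adjusted p = 0.363) was -0.40 without control 1 and -0.16 against control 2 alone. The second probe set of ACACA gave -0.27 with all controls and -0.47 against control 2 alone. The third gave -0.39 and -0.13. In these dimmer probe sets the groups overlapped. FASN, which builds palmitate from malonyl-CoA, averaged 8.35 ± 0.07 in manganese and 8.37 ± 0.21 in control (SD, n = 3 each), a difference of -0.02 (95% interval -0.32 to 0.28).

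Among the desaturases and elongases, SCD and ELOVL5 lay closer to 0 once control 1 was left out, and none passed the test. SCD, which makes oleate from stearate, read 10.37, 10.35 and 10.50 on manganese arrays, against 11.36, 10.49 and 10.56 on control arrays. Its difference of -0.40 (limma adjusted p = 0.475) was -0.12 without control 1. ELOVL5, an elongase of polyunsaturated chains, read 8.82, 8.68 and 9.17 in manganese, against 9.74, 8.94 and 8.91 in control, and its difference of -0.30 was -0.03 without control 1. ELOVL6, which extends palmitate, was at -0.33 with all controls and -0.40 without control 1. It lay below the 40th percentile on 2 manganese arrays. FADS1 and FADS2, the desaturases of polyunsaturated fatty acids, were at 0.12 (95% interval -0.21 to 0.44) and -0.09 (-0.38 to 0.20). LPIN1, a phosphatidate phosphatase of lipid synthesis, read 7.62, 7.59 and 7.89 in manganese, against 8.78, 7.77 and 8.04 in control. Its difference of -0.49 was -0.20 without control 1 and -0.07 against control 2 alone.

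**Figure D2:**
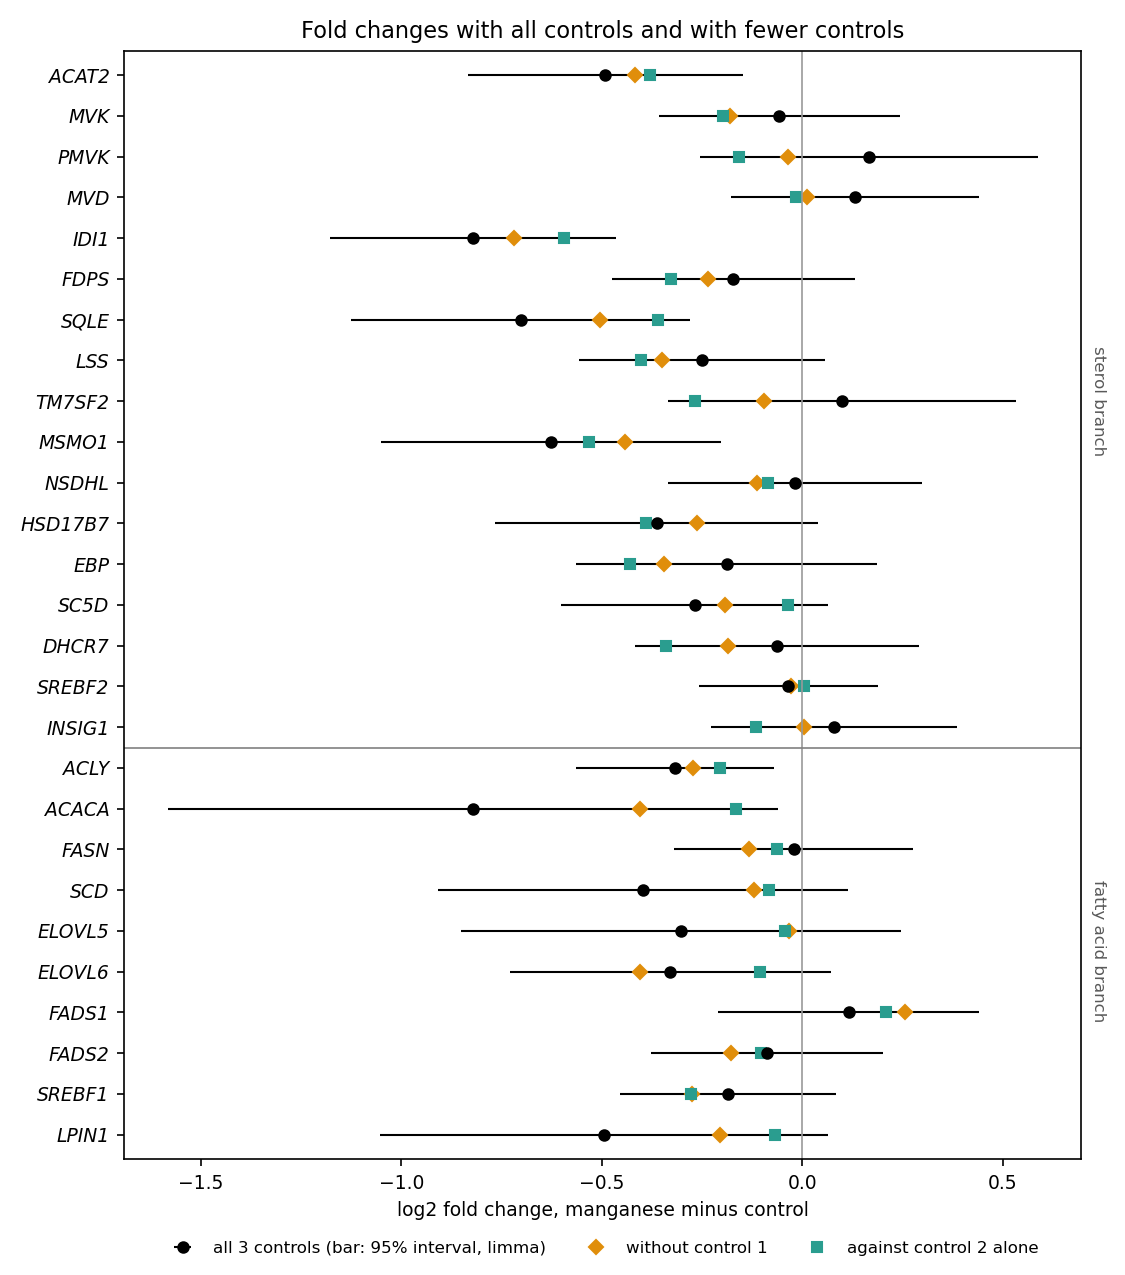
Log2 fold change, manganese minus control (horizontal axis), of the 27 tested genes (vertical axis) with all 3 controls (black, bar for the 95% interval from limma), without control 1 (orange) and against control 2 alone (green). IDI1, MSMO1 and ACAT2 lie between -0.82 and -0.38 in all 3 comparisons, while ACACA, SCD, ELOVL5 and LPIN1 move toward 0 once control 1 is left out.

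Which branch was the lower depended on the controls. With all 3 controls, 13 of 17 sterol genes and 9 of 10 fatty acid genes were below 0, and the median log2 fold changes were -0.17 and -0.31, so the sterol median lay 0.14 above the fatty acid median. Without control 1 both medians were -0.19, with 15 of 17 and 9 of 10 genes below 0, where 50% of all genes tested were below 0. Against control 2 alone the order turned. The sterol median was -0.33 and the fatty acid median -0.09, with 16 of 17 and 9 of 10 genes below 0, against 48.4% of all genes tested. Without control 2 the sterol median was -0.07 and the fatty acid median -0.40. These comparisons share the manganese arrays and some controls and are not separate checks. The difference between the branches was not tested, since genes are not replicates of a condition.

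For branch averages on each array, each gene was centred on its mean over the 6 arrays, and the genes of a branch were averaged. The sterol branch read -0.05, -0.08 and -0.19 on manganese arrays, against 0.04, 0.17 and 0.10 on control arrays. The fatty acid branch read -0.14, -0.17 and -0.12 on manganese arrays, against 0.36, -0.05 and 0.12 on control arrays. In both branches all manganese arrays lay below all control arrays, and the average of all genes tested stayed between -0.01 and 0.02. How often averages of so few genes separate in this way was not tested. The sterol average includes IDI1, which passed the brightness filter through its control arrays only. The spread of controls was larger in the fatty acid branch, with an SD of 0.21 against 0.06 in the sterol branch (n = 3). Control 1 was the highest of the 6 arrays for 6 of the 10 fatty acid genes and for 6 of the 17 sterol genes, against 27.9% of all genes tested. It was the lowest array for 1 fatty acid gene and 6 sterol genes, against 37.1% of all genes tested.

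**Figure D3:**
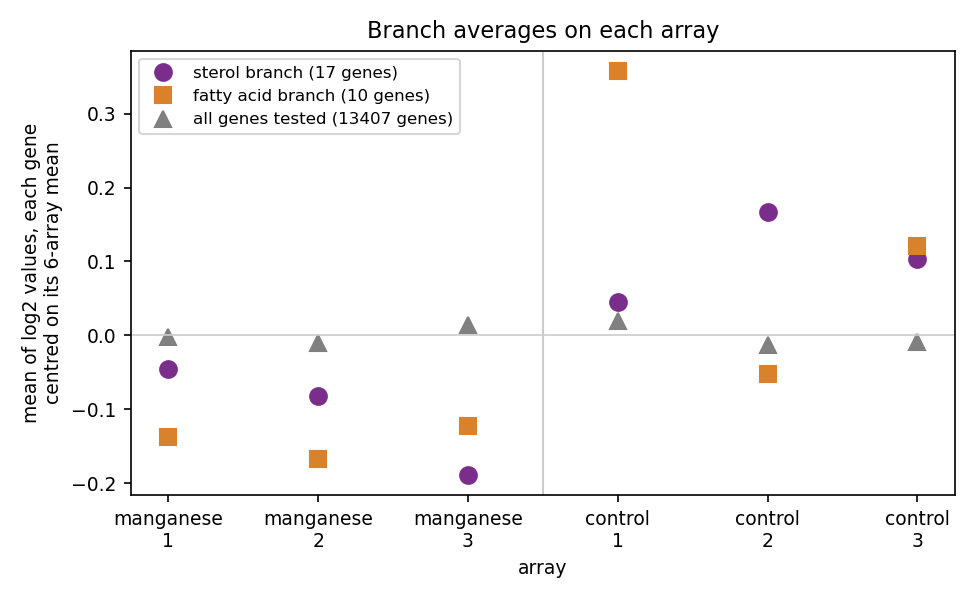
Mean log2 value of the 17 sterol genes (purple circles), the 10 fatty acid genes (orange squares) and all 13407 genes tested (grey triangles), each gene centred on its 6-array mean (vertical axis), on each array (horizontal axis), with manganese arrays left of control arrays. Control 1 reads 0.36 for the fatty acid branch and 0.04 for the sterol branch, and control 2 reads -0.05 and 0.17.

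The 9 genes that were lower at an unadjusted p under 0.05 without control 1 were ACAT2, IDI1, SQLE, LSS, MSMO1, EBP, ACLY, ACACA and SREBF1, against 6.42% of all genes tested. FADS1, at 0.26, was the 1 gene higher at that level, against 7.85% of all genes tested. Their limma adjusted p lay between 0.124 and 0.304, so 0 of the 27 passed in that fit as well. The smallest was that of IDI1, which passed the brightness filter through its control arrays only and adds little to such counts. Against control 2 alone 5 genes were lower at an unadjusted p under 0.05, against 4.33% of all genes tested. All 5 were in the sterol branch, and the smallest limma adjusted p was 0.486. With control 2 left out, 10 genes were lower at that level, against 12.1% of all genes tested. Within groups, the median SD of the 27 genes was 0.14 on manganese arrays and 0.21 on control arrays, beside 0.11 and 0.19 for all genes tested.

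Probe sets of the same gene mostly leaned the same way. The 27 genes had 61 passing probe sets, of which 44 were below 0. Of the 18 genes with more than 1, signs differed for 5, namely MVK, INSIG1, FADS1, FADS2 and SREBF1. Probe sets differed by more than 0.5 for SQLE, INSIG1 and ACACA. For 14 of the 27 genes, IDI1, MSMO1, ACLY, SCD, ELOVL5 and ELOVL6 among them, the brightest probe set carries the suffix s or x. Affymetrix uses these suffixes for probe sets that may also read other transcripts, so other RNAs may add to those signals.

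**Figure D4:**
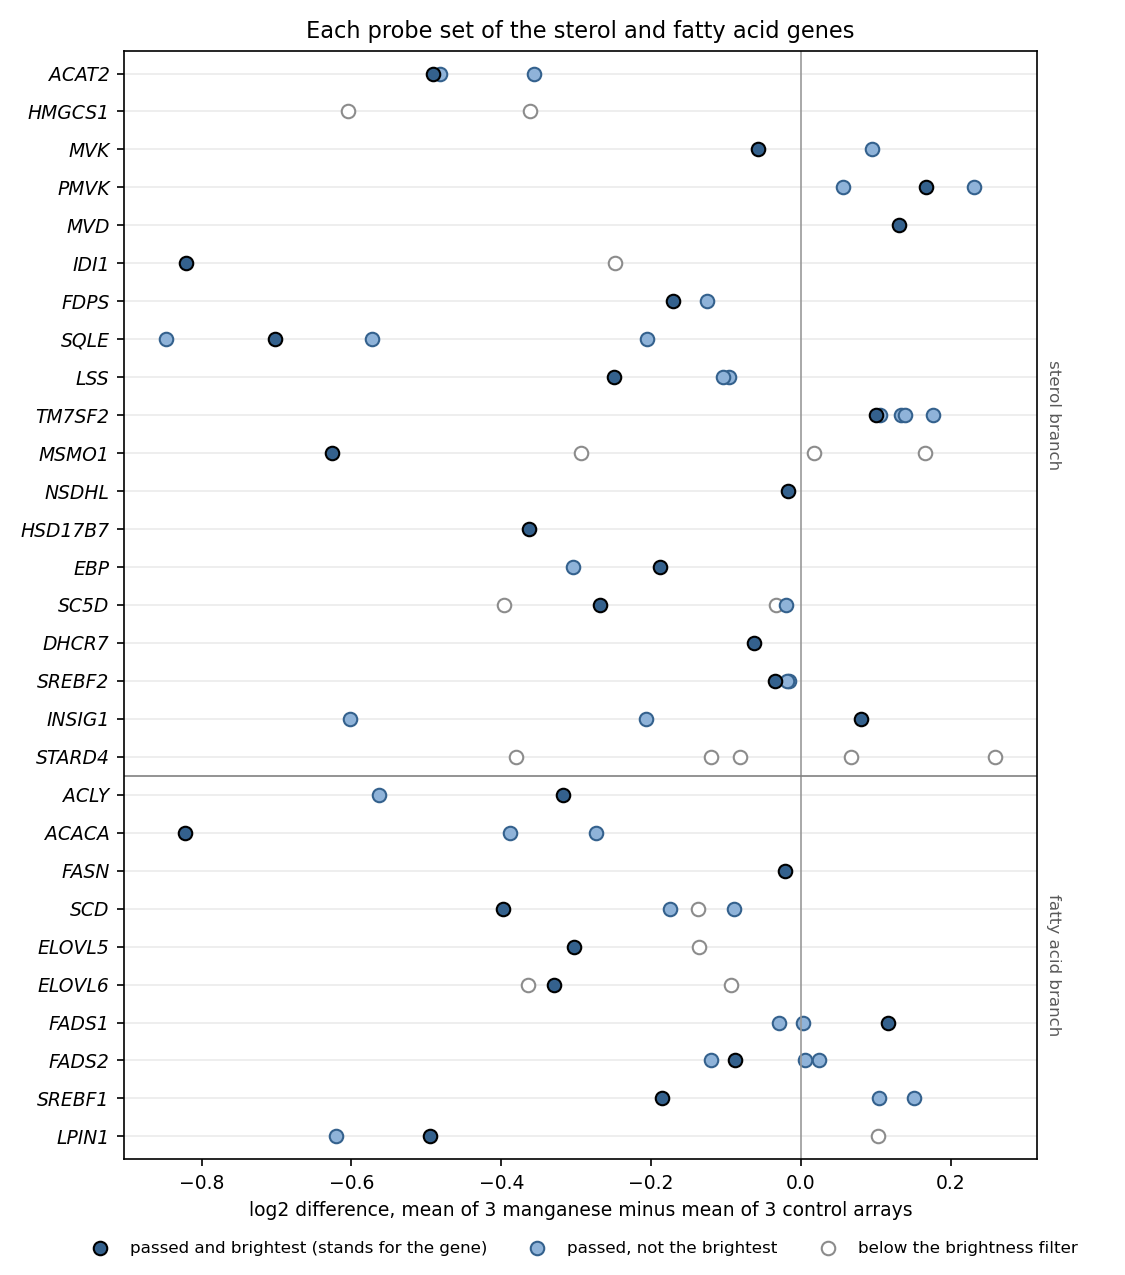
Difference between the mean of the 3 manganese and the mean of the 3 control arrays (log2, horizontal axis) for every probe set of the 29 genes with a probe set of their own (vertical axis). Dark points are the brightest passing probe sets, light blue points the other passing ones and open points those below the brightness filter. All 5 probe sets of TM7SF2 lie right of 0 and all 4 of SQLE left of it, while those of INSIG1 spread from -0.60 to 0.08.

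Genes around the pathway gave no passing value either. In the list of SREBP transport and processing, 13 of 14 genes were tested, 0 passed (0 higher and 1 lower at an unadjusted p under 0.05), and 8 were below 0, with a median of -0.09. SCAP was at 0.03 and INSIG2, the sister of INSIG1, at 0.02, but the 3 probe sets of INSIG2 ranged from 0.02 to 0.52. Of the 13, 8 were below 0 against control 2 alone, with a median of -0.10, and 7 were below 0 without control 1, with a median of -0.03. Those with the smallest p were UBXN4, a factor of protein disposal at the endoplasmic reticulum, at -0.40 (limma adjusted p = 0.359), MBTPS1, the protease that makes the first cut in SREBPs, at -0.31, and ERLIN2 at 0.23. Probe sets of UBXN4 ranged from -0.40 to 0.60, and those of ERLIN2 from -0.02 to 0.23. In the list of liver X receptors and their efflux targets, which rise when sterols accumulate, 6 of 10 genes were tested, 0 passed (0 also at an unadjusted p under 0.05), and 5 were above 0, with a median of 0.09. The list turned against control 2 alone, with 4 of 6 below 0 and a median of -0.14. Without control 1 it held 3 above and 3 below 0. NR1H3, a liver X receptor, was at 0.45 (limma adjusted p = 0.397), LPCAT3, a phospholipid remodelling enzyme, at -0.23, RXRA, the receptor partner, at 0.11, and ABCG1, a sterol exporter, also at 0.11 with all controls and at -0.18 against control 2 alone. Probe sets of LPCAT3 ranged from -0.23 to 0.38. ABCA1 was too dim to be tested.

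In the list of sterol uptake and transport, 14 of 15 genes were tested, 0 passed (1 higher and 1 lower at an unadjusted p under 0.05), and 10 were below 0, with a median of -0.07. The list turned here too, with 8 of the 14 above 0 and a median of 0.0087 against control 2 alone, while 9 were below 0 without control 1, with a median of -0.02. SCARB1, a receptor for high-density lipoprotein, averaged 8.11 ± 0.07 in manganese and 7.57 ± 0.21 in control (SD, n = 3 each). Its log2 fold change of 0.54 (limma adjusted p = 0.204) was 0.53 against control 2 alone, but its other probe set gave 0.07. VLDLR, a lipoprotein receptor, was at -0.68 (limma adjusted p = 0.332) and at -0.44 against control 2 alone, and LRP8, the related receptor of neurons, was at -0.41 and -0.14. In the list of other fatty acid synthesis genes, 20 of 25 were tested, 0 passed (0 also at an unadjusted p under 0.05), and 12 were above 0, with a median of 0.03. Of the 20, 11 were above 0 against control 2 alone and 14 were above 0 without control 1. In the fit without control 1, 4 of the 20 were higher at an unadjusted p under 0.05, against 7.85% of all genes tested. None were lower at that level, against 6.42%, and 0 passed. ELOVL4 at 0.37, TECR at 0.32 and OXSM, of the mitochondrial pathway, at 0.43 had the smallest p in it, each with a limma adjusted p between 0.429 and 0.436.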

How the data were processed

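Expression was read on 6 arrays, 3 from manganese-exposed and 3 from control SH-SY5Y samples, grouped by the labels. The deposited log2 values for 49395 probe sets are RMA values that the authors computed in Expression Console of Affymetrix (source: per the submitters' processing notes) from cRNA of 6 µg total RNA, per the labels' protocols. RMA subtracts background, sets all arrays to the same distribution and summarizes probes, so a shift shared by most genes is removed. Software versions: not given in the sources used here. Arrays give no counting depth, and their number limits the precision.

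The platform annotation gave 1 symbol for 44988 probe sets, several for 1832 and none for 2473, and 102 Affymetrix controls served for checks only. Of 18132 genes, 18111 matched RefSeq by Entrez number. Probe sets above the 40th percentile of their array on at least 3 arrays were kept, the brightest for each gene. limma 3.58.1 in R 4.3.3 (lmFit, eBayes, group as the only term) was fitted to all 13407 genes, two-sided, with Benjamini-Hochberg adjustment over all of them. The script was tested on simulated data. Medians and array averages are descriptions without a test.

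The genes, lists, named genes and alternatives were chosen with earlier results of these data known. Named were all 32 genes, the 3 genes with the smallest p in each surrounding list, and INSIG2, SCAP, ABCA1 and ABCG1. Promoters were shown for genes with an exact TCACNCCAC match, with MSMO1 and IDI1 added afterwards. Alternatives changed the brightness filter, variance model, array weights, scaling, probe set rule, replicate block and the arrays used.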

Additional observations from a re-analysis of the deposited data

How the results depend on the processing

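Across 18 alternatives, 438 of 483 values for the 27 genes kept their direction and their side of the threshold, and 17 genes changed sign in none of them. The other brightness filters, the variance models and the replicate block leave the fold changes of these genes as they were. The spike-in term gives the same fold changes as control 2 alone. Much of the kept direction was therefore fixed in advance. With array weights, 13 of the 27 genes passed, 14 were lower and 1 higher at an unadjusted p under 0.05, and 3945 of all genes passed. That fit stopped before it converged, with weights of 8.22 for control 3 and 0.15 for control 1. In the other settings 0 of the 27 passed. The count over all genes was 50 with median centring, 41 with housekeeping centring, 6 with the replicate block, 5 against control 2 alone, 2 with spike-in level as a term, and 0 to 43 with 1 array left out. It was 0 without control 3 or any manganese array (428 to 577 genes higher and 404 to 718 lower at an unadjusted p under 0.05), and 43 without control 2. Genes of the 27 that were lower at that level numbered 1 with the spike-in term and 4 to 10 with 1 array left out, and those higher 0 to 1. Over all genes the lower ones numbered 2826 with array weights, 218 with the spike-in term, 1617 without control 2 (10 of the 27) and 718 without manganese 3 (4 of the 27), beside 918 with all arrays.

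The 60th percentile filter left 15 sterol genes, IDI1 not among them, at the same fold changes, and their median was -0.063. The sterol median was -0.096 with the second brightest probe set, and -0.33 against control 2 alone or with the spike-in term. With 1 array left out it was -0.19 to -0.067 (-0.074 without manganese 3, -0.067 without control 2). The fatty acid median was -0.092 against control 2 alone or with the spike-in term, and -0.40 to -0.19 with 1 array left out. Their difference was -0.24 against control 2 alone or with the spike-in term, and -0.0014 (without control 1) to 0.34 (without control 2) with 1 array left out. The cause of the shifts under the other settings was not tested.

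Signs turned in 32 values. Against control 2 alone and with the spike-in term PMVK was at -0.16, MVD at -0.016, TM7SF2 at -0.27, SREBF2 at 0.0049 and INSIG1 at -0.12. With the mean of passing probe sets MVK was at 0.019, INSIG1 at -0.24 and SREBF1 at 0.023, and with the second brightest MVK was at 0.095, INSIG1 at -0.60 and SREBF1 at 0.10. Median centring put NSDHL at 0.0064 and FASN at 0.0033, and housekeeping centring put NSDHL at 0.035, SREBF2 at 0.018 and FASN at 0.032. With 1 array left out the values ran from -0.18 to 0.013 for MVK, -0.036 to 0.33 for PMVK, -0.095 to 0.28 for TM7SF2, -0.11 to 0.075 for NSDHL, -0.19 to 0.075 for DHCR7 and -0.13 to 0.070 for FASN, the low end in each without control 1.

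Whether same-numbered samples were handled together is not given. Same-numbered arrays had correlations of deviations from their group means of -0.30, 0.15 and -0.27 over genes. With 3 arrays a group these deviations depend on each other, so the values cannot decide on a pairing. With the replicate block 0 of the 27 genes passed and 6 were lower at an unadjusted p under 0.05, the same totals as without it. Of the 6, 5 were sterol genes and 1 a fatty acid gene, beside 4 and 2 without the block. The smallest limma adjusted p was 0.308, beside 0.138 without the block. At 3 arrays a group, the standard errors of the 27 genes ran from 0.10 to 0.33 on the log2 scale, which limits what could be detected.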

Other observations

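Beside the synthesis genes, 2 further lists of the same metabolism were measured. Of 14 genes of fatty acid oxidation, 11 were tested, 0 passed (1 higher and 1 lower at an unadjusted p under 0.05), and 8 were above 0, with a median of 0.12, or 0.04 against control 2 alone, where 8 were also above 0. ACADVL, the very-long-chain acyl-CoA dehydrogenase of mitochondria, averaged 10.99 ± 0.07 in manganese and 10.31 ± 0.17 in control (SD, n = 3 each). Its log2 fold change of 0.69 (limma adjusted p = 0.111) was 0.53 against control 2 alone, and its 3 probe sets lay between 0.30 and 0.69. SLC25A20, which carries acylcarnitines into mitochondria, was at -0.48 (limma adjusted p = 0.216), with 3 probe sets from -0.48 to -0.40, and at -0.41 against control 2 alone. ECI1, an enoyl-CoA isomerase, was at 0.29 with all controls and at 0.01 against control 2 alone.

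Of 12 genes that use the isoprenoids of the mevalonate pathway, 10 were tested, 0 passed (1 higher and 2 lower at an unadjusted p under 0.05), and 7 were below 0, with a median of -0.13. Against control 2 alone the median was -0.05, and 5 were above and 5 below 0 without control 1. PDSS1 and PDSS2, which together build the side chain of coenzyme Q, were at -0.74 (limma adjusted p = 0.336) and -0.61 (limma adjusted p = 0.261), or -0.30 and -0.41 against control 2 alone. The other probe set of PDSS2 gave 0.50. PGGT1B, a subunit of an enzyme that attaches isoprenoid lipids to proteins, was at 0.57 (limma adjusted p = 0.242) and at 0.72 against control 2 alone.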
